A study of Mus musculus with 2 samples.

Results

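The V-ATPase V0 sector and accessory genes are 8 mouse genes chosen by name, Atp6v0a1, Atp6v0a2, Atp6v0b, Atp6v0c, Atp6v0d1, Atp6v0e, Atp6ap1 and Atp6ap2, out of 21314 protein-coding genes whose strand was known. They were followed through USF1 ChIP-seq in CH12.LX, an immortalized mouse B-cell lymphoma line from a female of strain B10.H-2aH-4bp/Wts, for which the labels name no treatment or genetic change. The data are 1 group of 2 biological replicates, which carry the same donor label; the labels name possible controls, which were not analysed. The files analysed are lists of bound regions without read counts, so depth is unknown, and since no RNA was measured the cell type could not be checked against its expressed markers. For each gene, summits (the position of highest signal in a region) were taken within 5 kb of its start or inside it, which gave 8 of the 8108 summits of the optimal list.

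The V-ATPase is a rotary proton pump that acidifies lysosomes, endosomes and secretory vesicles. Its V1 sector splits ATP in the cytosol and turns a ring of c subunits in the membrane-bound V0 sector. Protons cross the membrane between that ring and the a subunit, and the d and e subunits complete V0. Atp6ap1 (Ac45) and Atp6ap2 (the prorenin receptor) are accessory proteins of the pump. USF1 is a basic helix-loop-helix leucine zipper factor that binds the palindromic E-box CACGTG, an element shared with the lysosomal regulators TFEB and MITF.

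The DNA under the summits is shown first, because the genes differed in which E-box form lay there. Each sequence comes from the mm9 genome and runs 5′ to 3′ on the strand of its gene, centred on the mm9 summit and, where the summit lay at the start, ended 30 bases past the start or earlier. Capitals mark CACGTG in Atp6v0b, Atp6v0d1 and Atp6v0e, and CATGTG, which is CACATG on the other strand, in Atp6v0c and in the intron of Atp6ap1. At the starts of Atp6ap1 and Atp6ap2, which had neither form, capitals mark the GC box GGGCGG (read as CCGCCC on the other strand) together with ATGTGA in Atp6ap1 and with CGTGAC in Atp6ap2, chosen after the sequences were seen. These were not marked elsewhere, though GGGCGG also lay in the sequences of Atp6v0b, Atp6v0c and Atp6v0e. CGTGAC, read on the other strand, also lay in those of Atp6v0b, Atp6v0d1 and Atp6v0e, overlapping CACGTG in Atp6v0b and Atp6v0d1. ATGTGA also lay in Atp6v0c and in the intron of Atp6ap1, overlapping CATGTG. The windows are chr4:117559918-117560018 on the minus strand for Atp6v0b, chr8:108089918-108090013 on the minus strand for Atp6v0d1 and chr17:26813298-26813370 on the plus strand for Atp6v0e. That of Atp6v0c is chr17:24306377-24306472 on the minus strand. Those on the plus strand of the X chromosome are chrX:71542390-71542465 for the start of Atp6ap1, chrX:71544443-71544543 for its intron and chrX:12164665-12164765 for Atp6ap2.
Atp6v0b: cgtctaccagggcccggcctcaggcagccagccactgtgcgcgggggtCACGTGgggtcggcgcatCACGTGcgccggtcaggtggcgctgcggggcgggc
Atp6v0d1: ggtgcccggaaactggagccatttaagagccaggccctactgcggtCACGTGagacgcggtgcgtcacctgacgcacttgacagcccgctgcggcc
Atp6v0e: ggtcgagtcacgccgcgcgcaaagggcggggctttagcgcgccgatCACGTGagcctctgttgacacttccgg
Atp6v0c: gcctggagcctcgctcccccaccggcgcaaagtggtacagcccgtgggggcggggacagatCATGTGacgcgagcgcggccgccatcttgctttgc
Atp6ap1 start: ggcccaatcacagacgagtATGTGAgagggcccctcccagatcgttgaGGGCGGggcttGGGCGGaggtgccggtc
Atp6ap1 intron: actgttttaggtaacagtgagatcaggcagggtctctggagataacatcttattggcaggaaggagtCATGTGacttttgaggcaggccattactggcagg
Atp6ap2: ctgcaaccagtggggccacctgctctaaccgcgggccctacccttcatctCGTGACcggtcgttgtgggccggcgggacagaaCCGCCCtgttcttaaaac

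In the optimal list, 6 of the 8 genes had a summit within 1 kb of the start, against 11.2% of all protein-coding genes. These were Atp6v0b, Atp6v0c, Atp6v0d1, Atp6v0e, Atp6ap1 and Atp6ap2. Among the members, the genes of the proteolipid ring, d and e subunits thus all had such a summit, and both a subunit genes did not. The further d and e isoform genes Atp6v0d2 and Atp6v0e2, which are not members, had none either. The optimal and conservative lists hold regions that passed a threshold on the rank agreement of lists (IDR), and the conservative one is shorter, at 7356 regions. The conservative list held 5 of the 8, without Atp6ap2, against 10.6% of all genes. Within 5 kb of the start the optimal list held 7 of the 8, with Atp6v0a1 added, against 15.8%. The relaxed lists of single replicates, which the authors describe as holding peaks and background, gave 7 of 8 in replicate 1, where 23.2% of all genes had a summit within 1 kb, and 7 of 8 in replicate 2, where the share was 33.6%. The separately derived mm9 list gave the same 6 genes as the optimal list, against 14.3% of genes. The 8 genes were proposed with results of these data in view, so the counts are a description and no test was made.

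**Figure D1:**
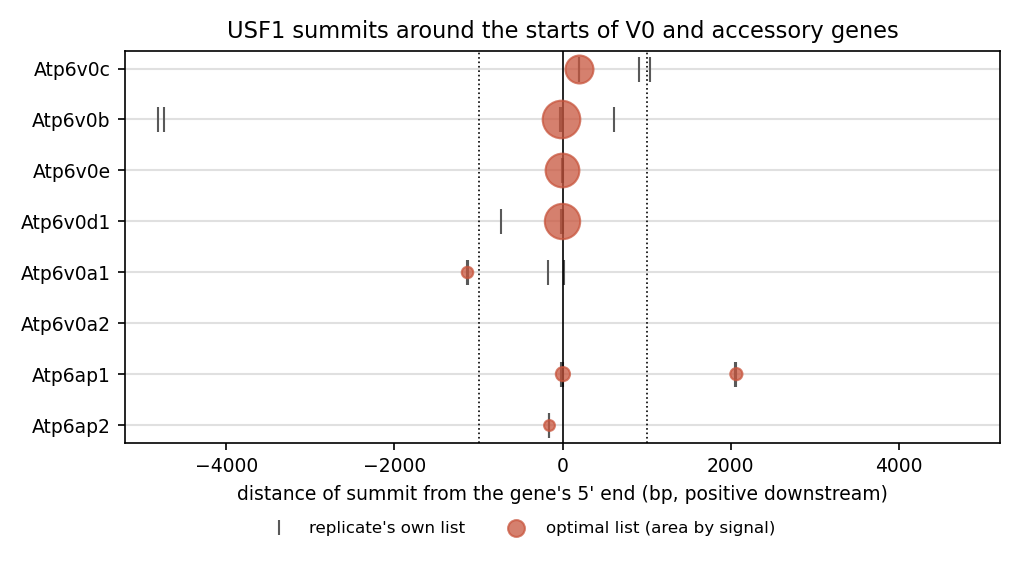
Position of each USF1 summit (mm10, bp from the gene's 5′ end, positive downstream) for the 8 genes; circles are optimal summits with area in proportion to the authors' signal, ticks are summits in the replicates' own lists and dotted lines mark 1 kb. The circles of Atp6v0b, Atp6v0d1, Atp6v0e and Atp6ap1 sit within 13 bp of the start, that of Atp6v0a1 lies 1132 bp upstream, and Atp6v0a2 has no mark.

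Atp6v0b encodes the c″ proteolipid of the ring and had the highest signal of the 8. Its region, chr4:117887199-117887499 in mm10, had a signal of 544 in the optimal list, rank 127 of 8108, with the summit 13 bp upstream of the start. Signal is the authors' own value per region, of unstated scale, and was compared only within a list or between the replicates' lists. Replicate 1 had 273 and replicate 2 had 272 there (mean 273 ± 0.530, SD, n = 2). The signals of the replicates lay as close as in any region of these genes. Their ranks were 85 of 25978 regions in replicate 1 and 209 of 44551 in replicate 2, against 332 and 341 at Atp6v0d1. The lists differ in length, so these ranks are not on 1 scale. As percentiles of those lists they were 99.7 and 99.5, closer than at Atp6v0d1, with 98.7 and 99.2. In mm9 its signal of 3948 ranked 21 of 10624 regions and 19 of the 1748 start-proximal peaks with CACGTG.

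The sequence of Atp6v0b printed above held 2 copies of CACGTG, with centres 0.5 and 18.5 bp from the mm9 summit, at positions -36 to -31 and -18 to -13 from the start, which counts as position 0. The mm9 summit lay at position -34, in the upstream copy. Of the 3082 start-proximal mm9 peaks, 119 (3.86%) held 2 or more copies within 50 bp of the summit, and their median signal was 1428, against 195.6 for the 1629 peaks with 1 copy.

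Atp6v0c encodes the c subunit, the main proteolipid of the proton-carrying ring. Its region, chr17:24169377-24169578 in mm10, had a signal of 300.3, rank 953, in the optimal list. Replicate 1 had 146 and replicate 2 had 155 (mean 150.1 ± 6.25, SD, n = 2), a log2 ratio of replicate 2 to replicate 1 of 0.08. The replicates were thus close, and their summits lay 4 bp apart. The summit stood 200 bp downstream of the annotated 5′ end but 28 bp upstream of another RefSeq start of the gene, at position 24169450. In the mm9 annotation it lay 16 bp upstream of the nearest coding start and in an intron of other transcripts. The window held CACATG, centred 13.5 bp from the mm9 summit, and no CACGTG. The GC box GGGCGG lay nearer, at positions -30 to -25 from the RefSeq start at 24169450, across the mm9 summit at -27. Which of these matches, if any, USF1 bound was not tested. Its mm9 signal of 645 ranked 41 among the 383 start-proximal peaks with CACATG alone, whose median was 76.4.

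Atp6v0d1 encodes the ubiquitous d subunit, which joins the ring to the central stalk. Its region, chr8:105565937-105566199 in mm10, had a signal of 480.3, rank 338, with the summit 9 bp upstream of the start. The start of the long non-coding gene Gm38250 also lay within 1 kb of this summit, so the region cannot be assigned to a single gene by distance. Replicate 1 had 230.0 and replicate 2 had 255 (mean 243 ± 17.7, SD, n = 2), a log2 ratio of 0.15. Both replicates placed it high, at ranks 332 and 341. In mm9 a single CACGTG was centred 1.5 bp from the summit, and the signal of 1893 ranked 149 of 1748 in its class.

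Atp6v0e encodes the small hydrophobic e subunit. Its region, chr17:26676268-26676509 in mm10, had a signal of 438, rank 484, with the summit 3 bp upstream of the start. Replicate 1 had 212 and replicate 2 had 229 (mean 220.4 ± 12.2, SD, n = 2), a log2 ratio of 0.11, with summits 3 bp apart. In mm9 a single CACGTG was again centred 1.5 bp from the summit, at positions 3 to 8 inside the untranslated first exon. The mm9 signal of 987 ranked 398 of 1748, the lowest of the 3 CACGTG genes here but above the class median of 215.9.

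In all 3 CACGTG genes the copy nearest the summit had a T before it, and the base after it was A or G. The copy nearest the summit read TCACGTGA in Atp6v0d1 and Atp6v0e, and TCACGTGG in Atp6v0b. TCACGTGA made up 18.5% of the nearest copies in the 1748 start-proximal CACGTG peaks, with a median signal of 924, and TCACGTGG or its reverse complement made up 26.4%, with a median of 478. Both medians lay above the class median of 215.9. The other forms with this T, TCACGTGC and TCACGTGT in either orientation, made up 10.5% and 8.92%, with medians of 403 and 216. The T was thus common in the class. For comparison, CCACGTGG had a median of 106 over 200 peaks and GCACGTGC a median of 55.1 over 42 peaks.

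**Figure D2:**
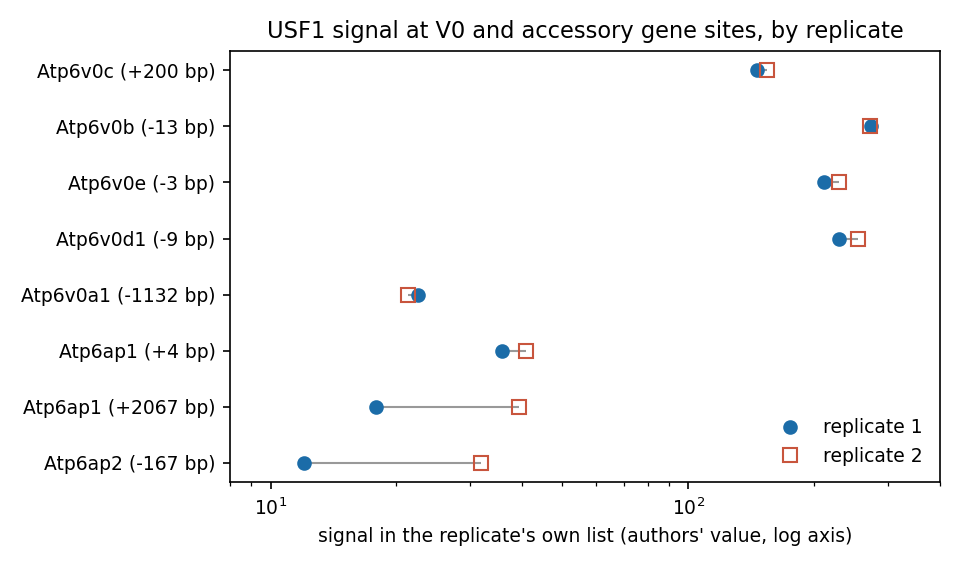
Signal (authors' value, log axis) of each of the 8 member regions in replicate 2 and replicate 1. The 4 V0 start regions lie between 146 and 273 in both replicates, the other 4 lie at 40.9 or lower, and the intragenic Atp6ap1 region and Atp6ap2 are the regions with clearly higher values in replicate 2.

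The accessory genes had weaker regions. At the start of Atp6ap1, chrX:74296951-74297250 in mm10, the optimal signal was 77.4, rank 3788, with the summit 4 bp downstream of the start. Replicate 1 had 35.8 and replicate 2 had 40.9 (mean 38.4 ± 3.64, SD, n = 2), a log2 ratio of 0.19. Inside the gene, 2067 bp from the start at chrX:74299014-74299313, a further region had an optimal signal of 57.0. It had 17.9 in replicate 1 and 39.3 in replicate 2, a log2 ratio of 1.13. The start region thus differed little between replicates and the intragenic one differed over 2-fold.

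Atp6ap2 had the lowest optimal signal of the 8 regions, 45.1 at chrX:12587442-12587741 in mm10, rank 6163, with the summit 167 bp upstream of the start. Replicate 1 had 12.0 and replicate 2 had 31.9 (mean 22.0 ± 14.1, SD, n = 2), a log2 ratio of 1.41. This was the region with the largest log2 ratio between replicates among the 8, and the one missing from the conservative list. Its SD was not the largest, as Atp6v0d1 had 17.7 and the intragenic Atp6ap1 region 15.1. Across start-proximal optimal regions found in both replicates the median log2 ratio was 0.15 with an SD of 0.44, and 4.83% of them (107 of 2216) differed over 2-fold, of which 74 were higher in replicate 2. Of the 6 start-proximal member regions 1 did so, that of Atp6ap2. The intragenic Atp6ap1 region, which is not start-proximal and so lies outside that background, also differed over 2-fold and was also higher in replicate 2.

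Neither accessory start had a canonical E-box within 50 bp of its mm9 summit. Atp6ap1 had a mm9 signal of 86.8, rank 256 of the 951 start-proximal peaks with neither form, and GGGCGG was centred 0.5 and 11.5 bp from its summit. Atp6ap2 had 47.5, rank 481 of 951, close to the median of that class, 48.1. CGTGAC was centred 2.5 bp from its summit, and GGGCGG 35.5 bp from it. Over both strands, CGTGAC occurred in 25.9% of the 951 peaks, against 2.00% of windows 500 bp to either side, and GGGCGG in 42.0% against 11.8%. The side windows were not matched for base content or distance to the start. Both hexamers also lay in sequences of members with an E-box form, CGTGAC in Atp6v0b, Atp6v0d1 and Atp6v0e, and GGGCGG in Atp6v0b, Atp6v0c and Atp6v0e. Their shares were not taken over peaks with an E-box form, so they are not shown to be particular to peaks without one. GGGCGG was in 46.7% of all the longer promoter windows described below, bound or not. ATGTGA, found 28.5 bp from the Atp6ap1 summit, was in 1.89% of the peaks, against 3.31% of the side windows. The intronic Atp6ap1 region held CACATG 19.5 bp from its summit, with a mm9 signal of 62.8. These matches are descriptions, and binding through them was not tested.

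Among the 6 genes with a start-proximal mm9 summit, 3 thus had CACGTG, against 56.7% of the 3082 start-proximal mm9 peaks. CACATG alone was found in 1, against 12.4%, and neither form in 2, against 30.9%. The genes followed the order of the class medians, which were 215.9 for CACGTG, 76.4 for CACATG alone and 48.1 where neither form lay, as the CACGTG genes had the highest mm9 signals and the accessory genes the lowest.

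**Figure D3:**
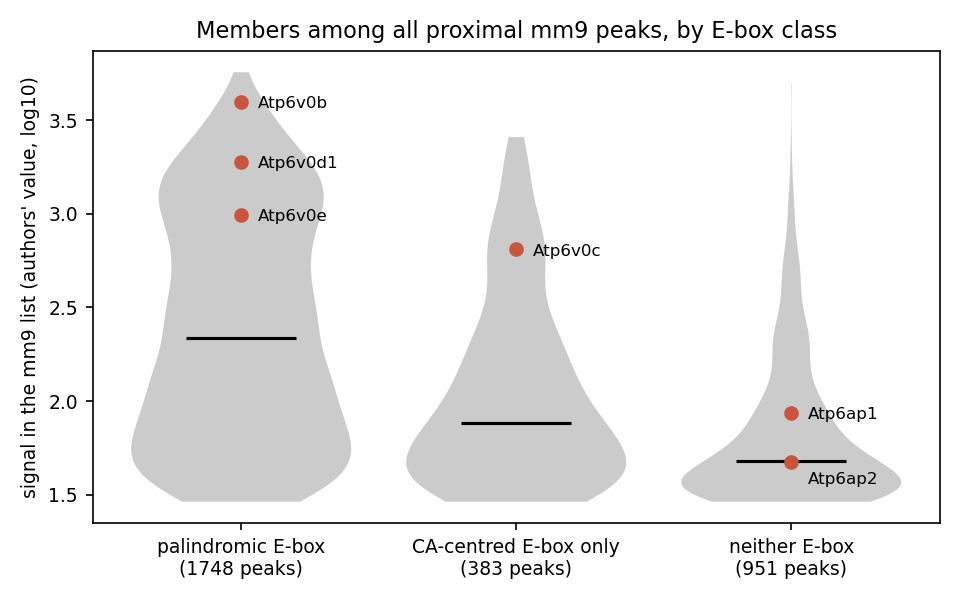
Signal of all 3082 start-proximal mm9 peaks (log10 of the authors' value) by the E-box form within 50 bp of the summit; grey shapes show the spread, black bars the medians and red points the 6 genes. Atp6v0b, Atp6v0d1, Atp6v0e and Atp6v0c lie above their class medians, Atp6ap1 lies at 86.8 above a median of 48.1, and Atp6ap2 lies on it.

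The a subunit genes, which encode the membrane arm that forms the proton path, had no start-proximal optimal summit. Atp6v0a1 had an optimal region 1132 bp upstream of its start, chr11:101008140-101008439 in mm10, with a signal of 50.7, rank 5593. Replicate 1 had 22.5 and replicate 2 had 21.3 (mean 21.9 ± 0.871, SD, n = 2), a log2 ratio of -0.08, so the replicates differed little. At the start itself replicate 1 listed a region of 8.99 at 15 bp downstream and replicate 2 one of 11.6 at 172 bp upstream, and neither was in the thresholded lists. No mm9 summit met the distance rule for Atp6v0a1. Atp6v0a2 had no region in either thresholded list, either replicate's list or the mm9 list, and the strongest of its 5 regions in the relaxed list of both replicates had a signal of 8.92, rank 70154 of 300000, 1384 bp downstream of the start. Binding at Atp6v0a2 was therefore not detectable in these lists, whose depth is unknown.

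Just beyond the distance rule, an optimal region with a signal of 171 lay 84 bp past the 3′ end of Atp6v0c. Its summit was 48 bp upstream of the start of the neighbouring gene Amdhd2, and it had 72.5 in replicate 1 and 98.6 in replicate 2. Just inside the rule, Atp6v0b had a region 4759 bp upstream of its start in the relaxed list of both replicates, at 33.0, with 14.0 in replicate 1 and 19.5 in replicate 2. It was in neither thresholded list.

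Promoter sequences of 7 members, taken from RefSeq on GRCm38.p6 (mm10) as 9 windows of 250 bases before to 50 after a start, were searched for motifs. Matches are exact letters on either strand. CACGTG was in 3 of the 9 windows, those of Atp6v0b, Atp6v0d1 and Atp6v0e, against 7.91% of 21044 windows of protein-coding genes. In Atp6v0d1 it lay at positions -3 to 2, across the RefSeq start. From the mm9 coding start it lay at -20 to -15, so its place depends on the annotation. Over all windows with CACGTG, 55.1% had an optimal summit within 1 kb, against 8.33% of windows without it. In 50.8% of the 917 bound windows with it a copy lay within 50 bp of the start. The same share was not taken for unbound windows, so it shows no link of position with binding. Of the members, all 3 with CACGTG had an optimal summit within 1 kb, and so did 3 of the 4 without it. CACATG was in 1 of the 9 windows, one of Atp6v0c at positions -16 to -11, against 11.6% of all windows. Over all windows, 11.8% of those with CACATG had an optimal summit within 1 kb, against 12.1% of those without. The window of Atp6v0a1 lay around a start further inside the gene, and Atp6v0a2 was not among the sequences.

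Among other promoter elements, the GC box GGGCGG was in 8 of the 9 windows and in 6 of the 7 members, all but Atp6v0d1. Its share was 46.7% over all windows and 69.3% over windows with an optimal summit within 1 kb. Windows of Atp6v0c overlap in part and share a GC box match, so they are not separate units. CCGGAA, a core bound by ETS factors, was in 3 of 9, those of Atp6v0b, Atp6v0d1 and Atp6v0e, against 18.9% of all and 29.9% of bound windows. CCAAT, bound by NF-Y, was in 3 of 9, those of Atp6v0b, Atp6ap1 and Atp6ap2, against 38.5% and 40.4%. TGACGT, found in cAMP response elements, was in 2 of 9, those of Atp6v0b and Atp6ap2, against 8.58% and 14.9%, and TATAAA was in 0 of 9, against 12.7% and 5.37%. The GC content of the 9 windows ran between 45.0% and 67.3%, against a median of 56.7% over all windows and 62.0% over windows with a summit. The lowest was that of Atp6v0a1. The middle 41 bases of all 6 start-proximal mm9 summit windows were found unchanged in the mm10 promoter windows.

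**Figure D4:**
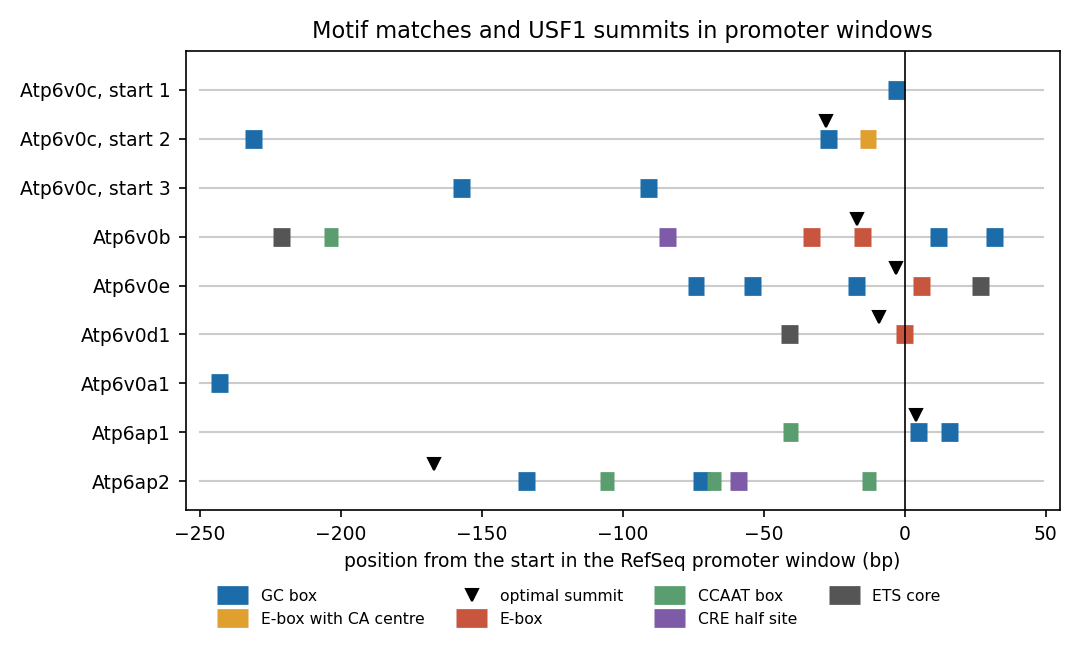
Motif matches (coloured squares) and optimal summits (black triangles) in the RefSeq promoter windows of 7 members, by position from the start in bp; Atp6v0c has 3 listed starts, numbered from the most upstream. CACGTG squares lie beside the summits of Atp6v0b, Atp6v0d1 and Atp6v0e, and the windows of Atp6ap1 and Atp6ap2 hold none.

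The other genes of the pump were read from lists of common V1 subunits, further isoforms, assembly factors and the RAVE-like complex, which helps V1 join V0. Of these 25 genes 13 had an optimal summit within 1 kb of the start, beside 6 of the 8 V0 and accessory genes and 11.2% of all genes. All 8 common V1 subunit genes did, with signals between 79.1 at Atp6v1e1 and 571 at Atp6v1c1. The others of that list were Atp6v1a, Atp6v1b2, Atp6v1d, Atp6v1f, Atp6v1g1 and Atp6v1h. The range of the V0 and accessory genes, 45.1 to 544, overlapped that of V1.

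Among the further isoform genes the count was 0 of 9, against 11.2% of all protein-coding genes, so the low count is near the background. They were Tcirg1, Atp6v0a4, Atp6v0d2, Atp6v0e2, Atp6v1b1, Atp6v1c2, Atp6v1e2, Atp6v1g2 and Atp6v1g3. Inside the gene, Atp6v0d2 had a region of 126 and Atp6v0a4 one of 40.1. In mm9, Tcirg1 had a summit 687 bp from a coding start with a signal of 42.6. Rnasek, whose product associates with V0, had a start region of 527, close to those of Atp6v0b and Atp6v0d1. Of the assembly factors Ccdc115 had 362 and Tmem199 had 321, and Vma21 had 185 near another listed start only. In the RAVE-like complex Wdr7 had 115 and Rogdi 47.0, and Dmxl1 and Dmxl2 had none. Rogdi also had a stronger region inside the gene, with a signal of 181. Starts of other genes lay within 1 kb of the summits of Atp6v1a, Atp6v1d, Atp6v1g1, Rnasek, Tmem199 and Ccdc115, so those regions are shared.

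**Figure D5:**
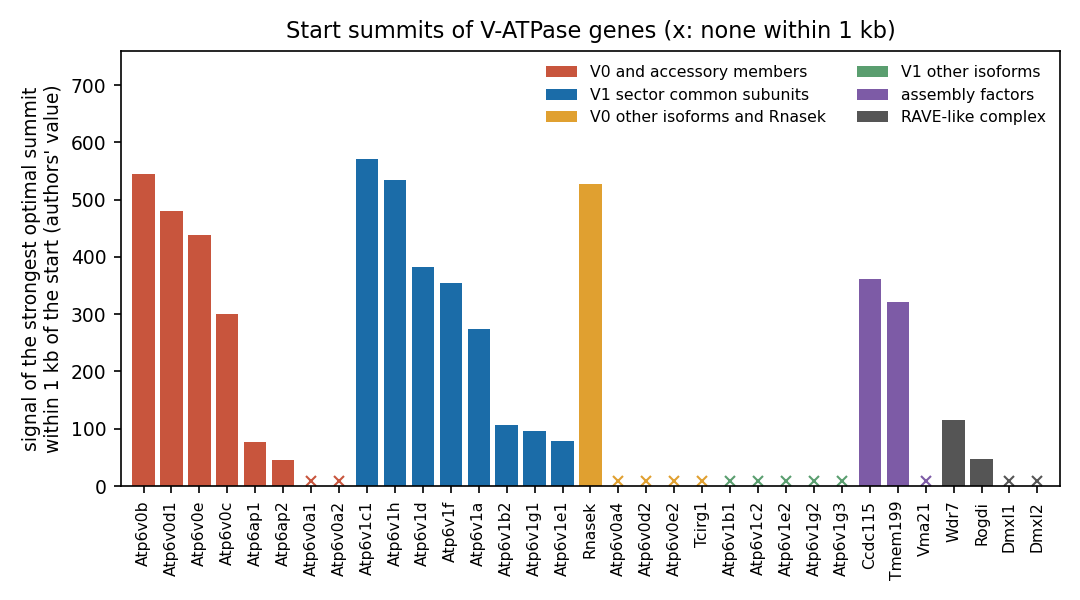
Signal of the strongest optimal summit within 1 kb of the start (authors' value) for the 8 V0 and accessory genes at the left and 25 other V-ATPase genes by list; a cross marks a gene without one. All 8 common V1 subunits have bars, between 79.1 and 571, and the 9 isoform genes other than Rnasek have crosses.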

How the data were processed

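USF1 ChIP-seq regions of 1 group of 2 replicates were used. Per the deposited readme files, the authors made relaxed mm10 lists per replicate and for both together, optimal and conservative mm10 lists thresholded by IDR, and a mm9 list from both replicates' alignments; no peak caller or aligner is named there. The signal (column 7) was used as deposited by the authors. Summits are the region start plus column 10, written 1-based; no coordinate was converted between builds. Starts came from RefSeq GRCm38.p6 in mm10 (1 start per gene, strand known for 98.6% of 21627 genes: 17273 from the promoter table and 4041 from Gencode vM1) and from coding transcripts of Gencode vM1 in mm9, whose sequence is NCBIM37. Lists were joined at an overlap of at least 1 bp. E-box form was read within 50 bp of mm9 summits. The members and gene lists were chosen with earlier results of these data known. All members and all genes of the lists are named. A look-up of B-cell genes is not reported here. No test was run, since there is 1 group; spread is that between 2 replicates, which may be partly technical. Scripts used Python 3.11.15, pandas 2.3.3, numpy 2.4.6 and matplotlib 3.10.9, and were tested on simulated data. Alternatives covered distance, list, replicate, overlap and window.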

Additional observations from a re-analysis of the deposited data

How the results depend on the processing

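The count of members with a start summit was 6 and ran from 5 to 7 over distances of 500 bp and 5 kb, the conservative list, the strongest 50% of the optimal list, either replicate alone, the mm9 list and any listed RefSeq start, the last added after seeing the data. Over the same alternatives the count for the other 25 V-ATPase genes ran from 12 to 14, around 13. Atp6ap2 was absent from the conservative list, from the strongest 50% and from the strongest 8108 regions of replicate 1. CACGTG was found in 3 members at 25, 50 and 100 bp, and the median log2 ratio of replicate 2 to replicate 1 was 0.13 at both overlap rules. The median absolute distance of the 6 start summits was 11 bp, against 108 bp over all start-proximal optimal regions. Those of Atp6v0c and Atp6ap2 lay farther off, at 200 and 167 bp. In mm9 the median was 16 bp, against 103 bp. With a replicate left out, an alternative added after seeing the data, it ran between 11.5 and 24.5 bp. The 24.5 bp was without replicate 1, and the cause was not tested. Of 23 percentile values under other lists, 22 moved beyond the replicate SD, 17 of them upward; the lists differ in length. No paired analysis was possible because there is 1 group. Unknown read depth limits what weak or missing regions show.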

Other observations

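The Amdhd2 start region beside Atp6v0c had no counterpart in mm9, where 0 summits lay within 1 kb of the 3 coding starts of Amdhd2, although its mm10 promoter window held 3 copies of CACGTG. Atp6v1d, with an optimal mm10 signal of 382, likewise had no mm9 summit within 1 kb of a coding start. The threshold of the mm9 list is not stated, so these absences do not show a lack of binding. In the relaxed list of both replicates a region of 34.1 lay 3527 bp past the 3′ end of Atp6v0a1 and 2848 bp upstream of Naglu, a lysosomal enzyme gene, with 13.3 in replicate 1 and 19.1 in replicate 2.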
